A study of Mus musculus with 4 samples.

Results

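Alveolar type II cells sorted from the lungs of Tlr3-deficient mice without a tumor were compared with the same cells from wild-type (WT) mice without a tumor. The comparison rests on 2 of the 4 arrays of the series, 1 for each genotype, and covers 17015 autosomal genes. The other 2 arrays hold WT and Tlr3-deficient cells from mice that had carried a subcutaneous Lewis lung carcinoma, a transplantable mouse lung tumor, for 2 weeks. They share no array with the comparison and are used here as a second, separate genotype pair. All 4 samples are labelled as lung tissue from female mice. Not given in the sources used here are strain, age, the number of mice behind an array, the markers of the sort and the deleted part of Tlr3. The genotype is written as Tlr3-/- in the growth protocol, and no label restricts the loss of Tlr3 to a cell type.

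Tlr3 encodes an endosomal receptor for double-stranded RNA. On binding RNA it signals through the adaptor encoded by Ticam1 to the kinase encoded by Tbk1 and the transcription factor encoded by Irf3, and type I interferons and the genes they induce follow. Alveolar type II cells make and recycle surfactant, a lipid-rich film with its own proteins, and they are the progenitors of the flat alveolar type I cells that carry gas exchange. The comparison asks which transcripts differ with genotype in these cells before any tumor is present.

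A level below is log2 of the processed spot intensity minus the array's 75th percentile, so that 0 is the 75th percentile. A difference is the Tlr3-deficient level minus the WT level, and a call means a difference of 2-fold or more, 1 in log2. Each genotype has 1 array, so nothing here was checked in replicates and p-values are not given. Where a gene was well above background on only 1 of the 2 arrays, the difference is a bound and is written "at least N-fold". Fewer cells of a type and less RNA per cell cannot be told apart in such bulk samples.

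The WT array was dimmer, with 554 intensity units at its 75th percentile against 761 for the Tlr3-deficient array, and 61.0% and 63.3% of gene spots were well above background. The 2 arrays lay on different slides, so slide and genotype cannot be told apart. The same holds for the 2 arrays with tumor. The WT array with tumor shared a slide with the Tlr3-deficient array without tumor. Replicate spots of 1 probe showed that the WT array was uneven. Their standard deviation (SD) in log2 was 0.347 in array columns 1 to 51 and 0.112 in columns 52 to 85, against 0.119 and 0.107 on the Tlr3-deficient array. The difference between the arrays had a replicate-spot SD of 0.346 in columns 1 to 51 and 0.131 in columns 52 to 85. For the main gene lists, results are therefore given with the side of the array on which the probes lie.

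Transcripts of the sex chromosomes went against the label of 1 array. Xist, the RNA that coats the inactive X chromosome of females, had a level of 4.06 on the WT array without tumor and 4.04 and 3.80 on the arrays with tumor, but -4.05 on the array labelled Tlr3-deficient without tumor. The Y-linked gene Ddx3y had a level of 1.07 on that array and did not clear background on the other 3, a difference of at least 79.8-fold from WT. Eif2s3y was at least 82.3-fold higher on it and Kdm5d at least 15.7-fold. Sex and genotype therefore cannot be told apart in the pair without tumor. Probes on chromosomes X and Y were left out of every count.

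Calls numbered 982 higher in Tlr3-deficient than in WT cells (5.77% of the genes tested) and 392 lower (2.3%). Of these calls, 409 and 143 were bounds. The 2 sides of the array did not give the same picture. Of 10120 genes with their probe in columns 1 to 51, 833 (8.23%) were called higher and 198 (1.96%) lower. Of 6758 genes in columns 52 to 85, 140 (2.07%) were called higher and 193 (2.86%) lower. The share of higher calls was thus 80.8% on one side and 42.0% on the other. The median over all genes was -0.05.

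**Figure D1:**
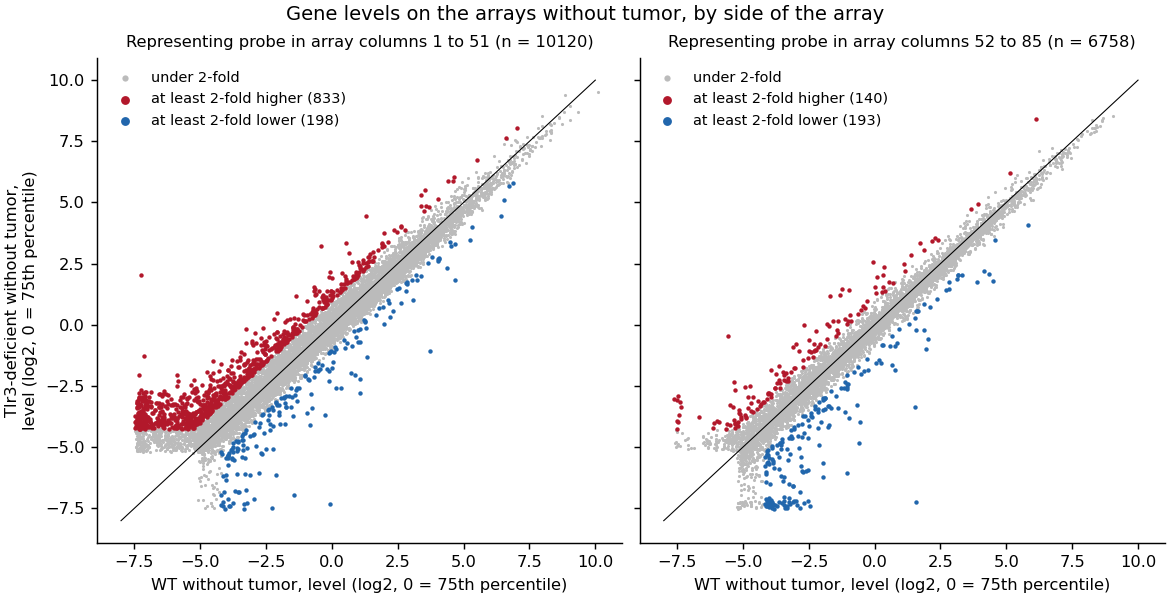
Level of each gene on the WT array (x axis) and the Tlr3-deficient array (y axis), both without tumor, in log2 with 0 at the array's 75th percentile; genes with their probe in array columns 1 to 51 are on the left and those in columns 52 to 85 on the right. Red points were called higher and blue points lower in Tlr3-deficient cells. The left panel holds 833 red and 198 blue genes, 380 of the red ones bounds, and the right panel 140 red and 193 blue.

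Genes with a probe on each side allowed a direct look at this. There were 3128 such genes. Of 158 called higher by their probe in columns 1 to 51, 19 (12%) were also 2-fold higher by the probe in columns 52 to 85. Of 34 called higher in columns 52 to 85, 19 (55.9%) were also 2-fold higher on the other side. For genes called lower the shares were 23.1% of 39 and 29.0% of 31. The pair of arrays with tumor gave a second look. Among 16455 genes tested in both pairs, 1.95% were called higher and 2% lower with tumor. Of 818 genes higher without tumor, 93 (11.4%) were 2-fold higher with tumor as well and 43 were 2-fold lower. Of 323 genes lower without tumor, 96 (29.7%) were 2-fold lower with tumor and 14 were 2-fold higher.

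Tlr3 itself was near background in WT cells and lower in the Tlr3-deficient cells. Its brighter probe, at chr8:46481729-46481788 (mm9, minus strand, columns 1 to 51), had a level of -3.92 on the WT array and -5.45 on the Tlr3-deficient array, where it was not well above background. That is at least 2.46-fold lower. The other Tlr3 probe, in columns 52 to 85, had levels of -4.83 and -6.38. With tumor the same probes gave differences of -1.35 and -1.26. All 4 values point the same way. Without knowing what was deleted, neither probe can be placed inside or outside it.

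The rest of the double-stranded RNA sensing list was close to even. Of 21 genes tested, none was called higher and 2 were called lower, Tlr3 and Ikbke, and the median was -0.12. Ikbke, a kinase related to Tbk1, went from -3.31 to -5.05, the latter not well above background, at least 3.35-fold lower. In the pair with tumor it was 0.32 higher. The adaptor gene Ticam1 differed by -0.52, the ubiquitin ligase gene Traf3 by -0.41, Tbk1 by 0.01 and Irf3 by -0.02. The cytosolic sensors Ifih1 (MDA5) and Ddx58 (RIG-I) differed by 0.01 and 0.44, and their adaptor Mavs by -0.05. In the Toll-like receptor family, 1 of 13 genes was called, Tlr3. Tlr2 differed by -0.42, Tlr4 by -0.17, Tlr5 by 0.86 and Tlr9 by -0.06.

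Among genes that type I interferon induces, 5 of 26 were called higher in the Tlr3-deficient cells and none lower, with a median of 0.35. The called members were mostly of the Ifit family, proteins that bind foreign RNA. Ifit3 had a level of 0.56 on the WT array and 1.75 on the Tlr3-deficient array, and -0.05 and 0.62 with tumor. Ifit2 went from -3.44 to -2.25, and Ifit1 from -1.65 to -0.89, short of 2-fold. These 3 probes lie in columns 52 to 85. Ifit3b differed by 2.10 and Ifi44 by 1.01, both in columns 1 to 51. Rsad2, which encodes the antiviral protein viperin, differed by 1.36 by its brightest probe in columns 1 to 51 but by 0.77 and 0.27 by its probes in columns 52 to 85. With tumor it was lower in the Tlr3-deficient cells by all 3 probes. Transcription factor genes of the pathway were not called: Irf9 differed by 0.16, Stat2 by -0.51 and Irf7 by -0.27. The list as a whole had a median of -0.08 in the pair with tumor. Ifit3 and Ifit3b are near-identical copies, and their probes may not separate them fully.

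The promoters of these genes were searched for letters of the interferon-stimulated response element, which the factors above bind. The letters GAAANNGAAA were searched on both strands in the 250 bases before and 50 after the gene start (RefSeq, GRCm38.p6). Matches may overlap. They were found for 11 of 19 genes of the list with a promoter sequence, and for 3.99% of all 27025 genes (3.44% of 32851 promoters). Of the 5 called genes 3 held a match. Stretches around the matches are shown for these 3 and for Ifit1 and Isg15, which hold it but were not called. Capitals mark the match on either strand.
Ifit3b: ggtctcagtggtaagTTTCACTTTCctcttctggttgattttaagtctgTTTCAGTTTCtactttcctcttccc
Ifit3: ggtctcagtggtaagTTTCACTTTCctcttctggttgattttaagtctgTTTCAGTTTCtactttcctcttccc
Rsad2: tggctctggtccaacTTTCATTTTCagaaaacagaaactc
Ifit1: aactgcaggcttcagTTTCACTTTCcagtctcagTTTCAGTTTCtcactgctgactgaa
Isg15: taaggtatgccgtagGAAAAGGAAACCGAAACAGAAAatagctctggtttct

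The stretches lie at chr19:34607754-34607827 (plus strand) for Ifit3b, chr19:34583358-34583431 (plus) for Ifit3 and chr12:26456548-26456587 (minus) for Rsad2. Those of the genes not called lie at chr19:34640770-34640828 (plus) for Ifit1 and chr4:156200860-156200911 (minus) for Isg15. The stretches of Ifit3 and Ifit3b are the same 74 letters, each with 2 matches, while the log2 differences of the genes were 1.18 and 2.10. Isg15, with 3 overlapping matches, differed by 0.39. A match describes these letters only, and its presence did not separate called from uncalled members.

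Genes of the interferon-gamma response gave 3 higher and none lower of 16 (median 0.48), all 3 in columns 1 to 51. Tgtp1, an interferon-induced GTPase that guards against intracellular microbes, stood out with levels of -2.08 in WT and 0.48 in Tlr3-deficient cells without tumor, and -0.91 and 1.97 with tumor. Its second probe, in columns 52 to 85 and not well above background in WT cells without tumor, gave 1.24 and 1.18. Tgtp1 has a near-identical copy in the genome, so the probes may read both. The guanylate-binding protein genes Gbp3 and Gbp7 differed by 1.26 and 1.01 without tumor and by 0.06 and 0.50 with tumor. For MHC class I presentation, 1 of 13 genes was called, H2-M3 (-1.59, and 0.54 with tumor), and the median was -0.23. For MHC class II, none of 10 was called and the median was 0.09.

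The identity genes of alveolar type II cells were expressed on both arrays, and the surfactant proteins differed little. All 18 markers measured were well above background on both arrays. Sftpc, the surfactant protein particular to these cells, had a level of 8.85 in WT and 9.38 in Tlr3-deficient cells, Sftpa1 8.63 and 8.32, Sftpb 7.38 and 7.21, and Sftpd 8.43 and 8.24. No marker was called higher and 1 was called lower, the chitinase gene Chia1, at 6.53 and 5.12, with 6.24 and 6.12 in the pair with tumor. The median of the list was -0.32, and 15 of the 18 were negative. Lamp3 and Abca3, of the lamellar bodies in which surfactant is stored, differed by -0.66 and -0.38, and Lpcat1, which remodels surfactant phospholipid, by -0.77. Of 26 lung epithelial transcription factors 1 was called, Sox9 (1.33), which was dim. Nkx2-1, the lineage factor of the lung, differed by 0.05, Foxa2 by -0.30 and Gata6 by 0.16.

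Alveolar type I genes were higher in the Tlr3-deficient cells. Of 15 markers 5 were called higher, none lower, 14 were positive and the median was 0.60. On the steadier side of the array, columns 52 to 85, the median was 0.88 over 9 genes, of which 3 were called: Spock2, a matrix proteoglycan gene (levels 1.37 and 2.87), Igfbp2, a binding protein of insulin-like growth factors (1.10 and 2.49), and Akap5, a kinase anchor (3.64 and 4.75). All 3 probes of Spock2, on both sides, were higher, by 1.51, 1.34 and 0.95. Vegfa, the endothelial growth factor gene that type I cells express, went from 4.02 to 5.13, and its other 3 probes gave differences of 0.68 to 0.84. Cav1, which forms caveolae, differed by 0.88, Clic5 by 0.92, Hopx by 0.60 and the water channel Aqp5 by 0.34. Ager, the most used marker of these cells, differed by -0.08 with levels of 5.51 and 5.43, from a probe in columns 1 to 51. The Tlr3-deficient array without tumor held the highest level of the 4 arrays for 14 of the 15 genes, against 24.4% of all genes tested. With tumor the median of the list was 0.32. Genes of the transitional state between type II and type I cells were near even as a list. Of 16 genes 1 was called (Areg, 1.31), 10 were positive and the median was 0.11. Krt8, the keratin by which that state is recognised, differed by 0.12 and Krt18 by 0.06, but Krt7 and Krt19 by 0.85 and 0.73.

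Matrix genes of elastic fibers were higher as well. Of 19 genes 6 were called higher and none lower, the median was 0.81 and 17 were positive. Eln, which encodes elastin, had levels of -2.22 in WT and -0.24 in Tlr3-deficient cells without tumor, a 3.95-fold difference, and -2.91 and -3.52 with tumor. The microfibril genes Fbn2 and Mfap5 differed by 1.42 and 1.23. These 3 probes lie in columns 52 to 85, where the median over 9 genes was 0.66. Fbln2 (1.84), Mfap4 (1.36) and Ltbp2 (1.14) lie in columns 1 to 51. Among collagens 3 of 26 were called higher, Col8a1 (1.66), Col15a1 (at least 2.99-fold by a dim probe, and -0.20 by the mean of its probes) and Col3a1, and 1 lower, Col12a1 (-1.29, with -0.59 and 0.09 by other probes). The median was 0.49. Col3a1, of fibrillar collagen, went from 2.29 to 3.54 and was 1.84 and 1.22 with tumor. Col1a2 went from 3.52 to 4.51, just under 2-fold.

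Fibroblast and pericyte markers gave 5 higher and none lower of 19, with a median of 0.75. Beside Col3a1 and Mfap4 they were Postn (1.24), Tagln (1.28) and Myh11 (1.33), the latter pair from the contractile apparatus of smooth muscle. Acta2, of the same apparatus, differed by -0.26 and the fibroblast proteoglycan gene Dcn by -0.14. The summed level of the list, in log2, was 6.65 in WT and 7.26 in Tlr3-deficient cells without tumor and 6.27 and 6.51 with tumor. Endothelial markers had a median of 0.43 with 16 of 17 positive, 1 called: Vwf, the von Willebrand factor of endothelium and platelets, at 1.88 and 3.07 without tumor and 2.75 and 3.81 with tumor. Its second probe gave 1.04 and 1.16. The endothelial summed level was 6.40 and 6.86 without tumor and 6.10 and 6.63 with tumor. Elastic fiber, collagen and type I genes are also made by, or lie near, these cell types, and the part of such cells in the differences was not tested. The 3 matrix and stromal lists had medians of 0.13, -0.03 and 0.03 in the pair with tumor, in the order elastic fibers, collagens and fibroblasts.

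**Figure D2:**
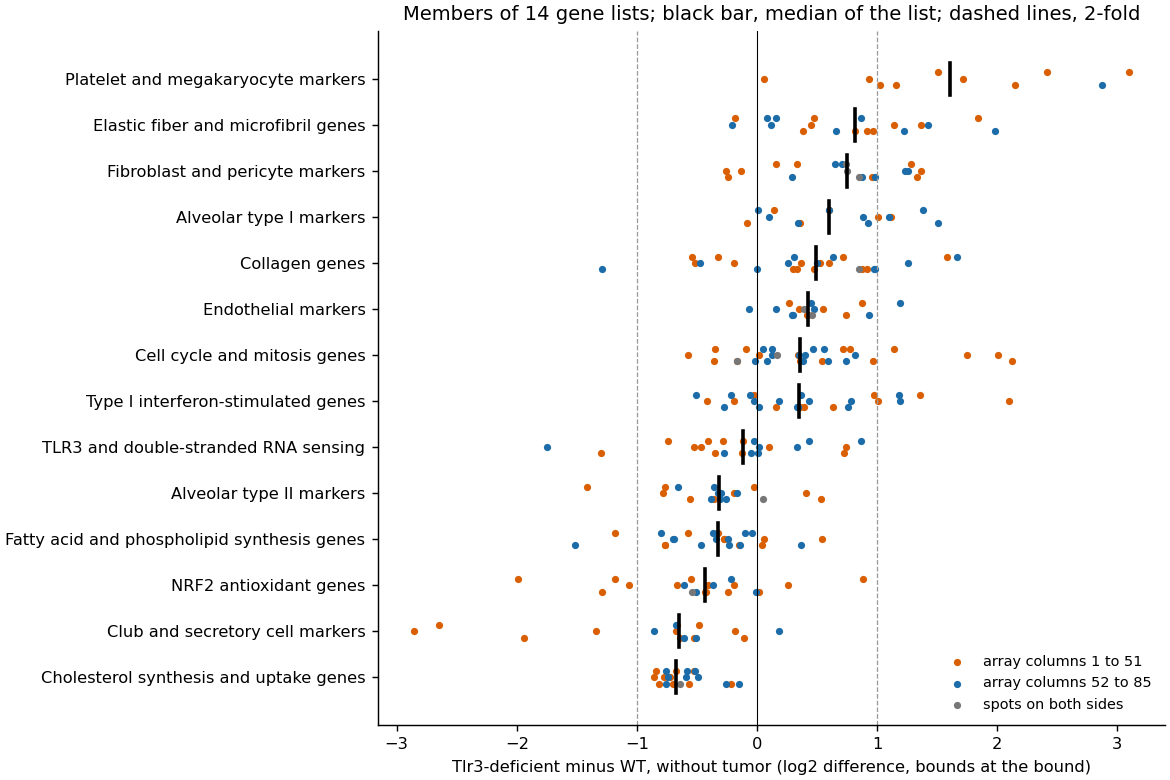
Log2 difference between Tlr3-deficient and WT cells without tumor for each measured member of 14 gene lists, with bounds drawn at the bound; colour gives the side of the array, black bars the list medians and dashed lines 2-fold. The medians of platelet, elastic fiber, fibroblast and alveolar type I genes lie to the right of 0 and those of secretory and cholesterol genes to the left, with the cholesterol genes all between -0.86 and -0.15.

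Platelet genes had the largest median of any list. Of 10 genes 8 were called higher, with a median of 1.74 (1.61 with bounds at the bound). Ppbp, the platelet basic protein, had levels of -1.68 in WT and 1.19 in Tlr3-deficient cells without tumor, and 0.05 and 0.46 with tumor. Gp9, of the receptor for von Willebrand factor, had levels of -3.25, -0.15, -1.33 and -1.51 in the same order. Treml1, a platelet granule receptor, had levels of -2.19, 0.22, -0.93 and -0.89. The Tlr3-deficient array without tumor was highest of the 4 in all 10 genes, and the WT array without tumor was lowest in 8. Their summed level was 2.08 and 3.69 without tumor and 2.84 and 2.83 with tumor, and the median of the differences with tumor was 0.09. Of the 10 probes 9 lie in columns 1 to 51 and only that of Ppbp (2.87) in columns 52 to 85. Where only probes of columns 52 to 85 were used, 1 further list member was read. The median was then 1.38, the midpoint of Ppbp and that member, which was not higher in the Tlr3-deficient cells. Clec1b, the platelet receptor CLEC-2 and no member of the list, also lies in columns 52 to 85 and went from -2.66 to 0.01, with -1.26 and -1.44 with tumor. Gp1bb, of the list and of the same receptor for von Willebrand factor as Gp9, differed by 0.06.

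Red cell genes were higher as a list, with a median of 0.83 and 2 of 5 called. Both calls lie in columns 1 to 51, where 8.23% of all genes tested were called higher. In columns 52 to 85 the 2 genes read had a median of 0.30 and none was called. Hba-a1, an alpha globin, went from 7.02 to 8.02 without tumor and from 7.86 to 6.80 with tumor. Slc4a1, the anion exchanger of the red cell membrane, went from -2.95 to -1.47 and from 0.21 to -1.81. So both were higher in Tlr3-deficient cells without tumor and lower with tumor. White cell genes did not follow. Of 7 leukocyte common genes none was called, with a median of -0.15, and Ptprc (CD45) had levels of -3.21 and -3.79. Of 8 neutrophil genes 1 was called, Ltf, which encodes lactoferrin (-1.80, and -1.52 with tumor), while S100a8 and S100a9 differed by 0.13 and 0.20. Alveolar macrophage genes had a median of -0.54 over 11 genes, with Fabp4 called higher at 2.00-fold. None of 8 monocyte and dendritic cell genes was called. Among T and NK cell genes Klrb1c (-1.46) and Cd2 (at least 2.40-fold) were lower and Il7r (1.10) was higher, all dim.

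Airway secretory genes were lower in the Tlr3-deficient cells. Of 16 markers 4 were called lower, none higher, 15 were negative and the median was -0.65. The largest differences were in antimicrobial secretions: Bpifa1 went from 4.68 to 1.82 without tumor and was 3.42 and 3.52 with tumor. Bpifb1, of the same family, went from 1.35 to -1.30 and from 0.76 to -0.24. Reg3g, a lectin that kills Gram-positive bacteria, went from 1.98 to 0.05 and from 4.64 to 0.12. Scgb3a1, a secretoglobin, went from 5.33 to 3.99 and differed by 0.08 with tumor. These 4 probes lie in columns 1 to 51. Over the 5 genes in columns 52 to 85 the median was -0.61 and none was called; Muc5b, of airway mucus, differed by -0.86 and Cyp2f2, an enzyme of club cells, by -0.51. Scgb1a1, the main product of club cells, was among the brightest genes with levels of 9.32 and 8.68. The summed level of the list was 10.58 in WT and 10.12 in Tlr3-deficient cells, and all 16 genes were well above background on both arrays. Ciliated cell genes had a median of -0.37, with 2 of 17 called lower: Ccdc153, at 4.02 and 2.59 without tumor and 4.83 and 3.28 with tumor, and Spag6, at least 6.80-fold. Foxj1, the master factor of motile cilia, differed by -0.54. The part of airway cells in the sorted fraction was not tested.

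Cholesterol synthesis genes were all lower by modest amounts. None of the 21 reached 2-fold, and all 21 were lower in the Tlr3-deficient cells, with a median of -0.67 and a range from -0.86 to -0.15. Hmgcs1, which encodes an enzyme at the entry to the mevalonate pathway, differed by -0.70. Mvd, Fdps and Fdft1, further along it, differed by -0.84, -0.82 and -0.86, and Sqle, the squalene epoxidase gene, by -0.67. Msmo1 went from 4.86 to 4.11 and was 4.85 and 4.76 with tumor. Insig1, which holds the pathway's transcription factor in check, differed by -0.72. Srebf2, the gene of that factor, differed by -0.22. The 2 sides of the array gave medians of -0.72 (columns 1 to 51) and -0.58 (columns 52 to 85). The Tlr3-deficient array without tumor was the lowest of the 4 in 19 of 21 genes, against 28.3% of all genes tested. In the pair with tumor the median was -0.09.

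The letters TCACNCCAC, a form of the sterol response element, were searched in the promoters of these genes in the same way. They were found in 1 of 14 with a promoter sequence and for 1.44% of all genes searched (1.24% of promoters). The only match belongs to Hmgcs1, at chr13:119690199-119690237 (GRCm38.p6, plus strand), and is shown in capitals.
Hmgcs1: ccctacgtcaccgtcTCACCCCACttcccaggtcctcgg

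**Figure D3:**
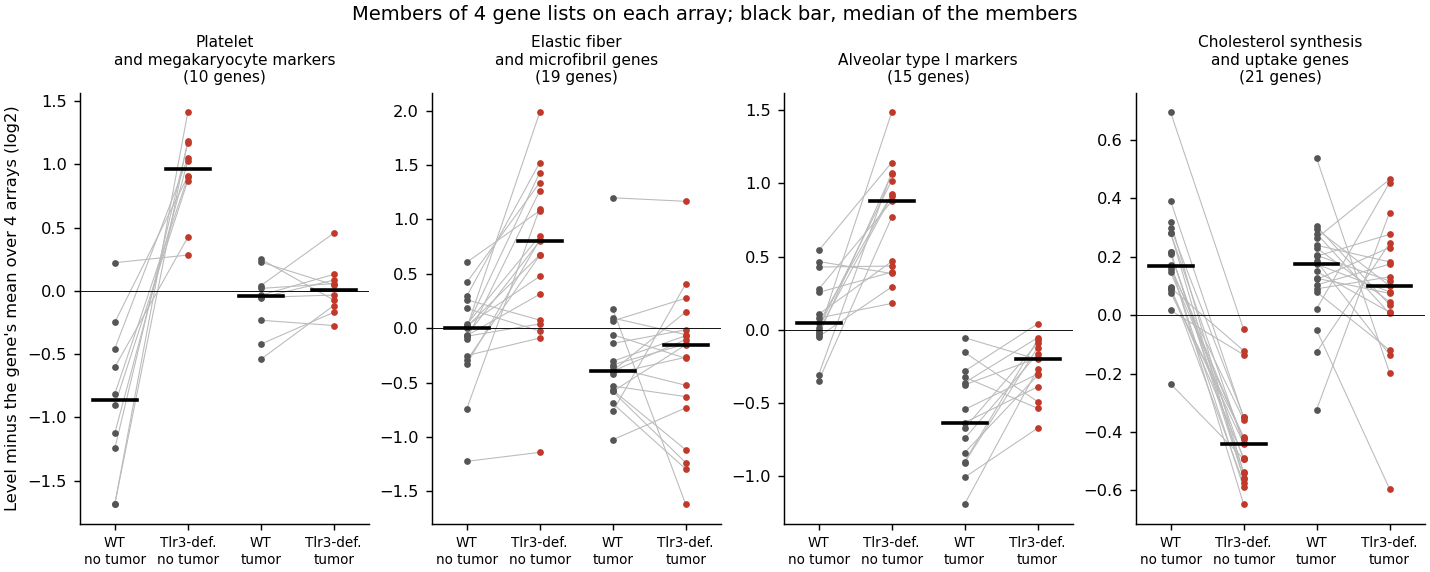
Level of each list member on each of the 4 arrays, in log2 relative to the gene's own mean over the arrays, with thin lines joining the genotypes and black bars at the medians. The platelet, elastic fiber and alveolar type I genes have their highest median in Tlr3-deficient cells without tumor, with 10 of 10, 14 of 19 and 14 of 15 genes highest there, and 19 of 21 cholesterol genes are lowest there. The 2 arrays with tumor lie closer together in each panel.

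Other lipid and redox genes leaned the same way with smaller sizes. In fatty acid and phospholipid synthesis 2 of 25 genes were called lower, none higher, 21 were negative and the median was -0.33. Lists of other functions had medians of like size, such as type II markers (-0.32) and heat shock genes (-0.31). With tumor the median of the fatty acid and phospholipid list was -0.0006. Thrsp, a lipogenic regulator, went from -1.95 to -3.47 without tumor and differed by -1.08 with tumor. Me1, the malic enzyme gene that supplies NADPH, had 2 probes with differences of -1.22 and -1.18, and -1.22 and -0.80 with tumor. Fasn differed by -0.15 and Srebf1 by -0.33. Of 20 genes controlled by NRF2, the factor of the antioxidant response, 4 were called lower, none higher, 17 were negative and the median was -0.43. All 4 calls lie in columns 1 to 51, and over the 5 genes in columns 52 to 85 the median was -0.37 and none was called. With tumor the median of the NRF2 list was -0.05. Gclc, the catalytic subunit of the first enzyme of glutathione synthesis, had a level of 6.42 in WT and 4.43 in Tlr3-deficient cells and 5.59 and 5.14 with tumor. The glutathione transferase genes Gsta3 and Gstm1 differed by -1.29 and -1.06 by their brightest probes but by 0.12 and -0.20 by others. Both belong to families of close copies. Nqo1 and Hmox1, the usual reporters of NRF2, differed by -0.43 and 0.26.

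In several other lists the calls are to be read against the 5.77% higher and 2.3% lower over all genes. None of 25 immediate early genes, 20 heat shock genes, 25 genes of the unfolded protein response, 18 targets of NF-kB or 16 complement genes was called. Their medians were -0.06, -0.31, 0.11, -0.06 and 0.01 in that order. Hspa5, the main chaperone of the endoplasmic reticulum, was the member of its list that differed most upward, by 0.84. In the epithelial acute phase list 1 of 20 was called, Reg3g, and Lcn2 differed by -0.07. Of 19 clock genes 1 was called lower, Dbp (-1.33), and 1 higher, and Arntl and Per1 differed by -0.23 and -0.43. Cell cycle genes had a median of 0.36, with 4 of 31 called higher, among them Top2a (1.75) and Kntc1 (2.12), all dim and all in columns 1 to 51. Top2a's second measured probe gave 0.34.

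Among signals between cells, Il18, a cytokine gene of the interleukin-1 family, was higher in both pairs, with levels of -3.19 and -1.42 without tumor and -2.44 and -0.59 with tumor. Cxcl12, the ligand of CXCR4, went from 1.17 to 2.66 without tumor and from 1.37 to 2.39 with tumor by its brighter probe, and its other probe differed by 0.02. The authors' deposited value table holds another value for it, -1.69, so the direction for Cxcl12 is not settled between the sources. Cxcl14, an epithelial chemokine, differed by 1.41 and by 0.32 with tumor. The neutrophil attractants Cxcl1 and Cxcl2 differed by -0.60 and -0.44. Of 22 imprinted growth genes 2 were called higher, Mest (2.19) and Rian, and 2 lower, Asb4 and Dlk1 (-1.08). Of these calls 2 were bounds, and the median of the list was -0.004. Over all genes 5.77% were called higher and 2.3% lower. Mest had levels of -2.97 and -0.79 without tumor and -2.85 and -2.84 with tumor.

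The list of niche genes that prepare the lung for metastasis, which draws on several of the groups above, had 5 of 16 members called higher, none lower and a median of 0.35. They were Vegfa, Postn, Cxcl12, whose direction differs in the authors' deposited value table, Loxl2 (1.20), which crosslinks collagen, and Bdnf (1.18, with 0.28 by its second probe), a neurotrophin gene. With tumor the median was -0.22. Ion and fluid transport gave Slc6a20a and the water channel Aqp4 (1.05) higher and the potassium channel Kcnj15 (-1.04) lower of 20. For Aqp4, a probe in columns 52 to 85 went the other way (-0.33). Among 22 cytochrome P450 genes Cyp26b1 was higher and Cyp2a4 (-1.16) lower. Of 17 glucocorticoid-induced genes 1 was called, Angptl4 (-1.38), an inhibitor of lipoprotein lipase. Of 21 junction genes 1 was called, Crb3. Of 9 B and plasma cell genes 1 was called, Jchain, of 5 mesothelial genes 1, Msln (1.01), and of the 3 mast cell and 6 basal cell genes none.

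The largest single differences were mostly repeated in the pair with tumor. In all, 189 genes were called the same way in both pairs, 93 higher and 96 lower. Of these, 25 and 48 have their probe in columns 52 to 85. Gm6213, a predicted gene, was the largest loss. Its probe at chr8:40453492-40453551 (mm9) had levels of 1.57 and -7.24 without tumor, at least 110-fold lower, and 1.70 and -7.52 with tumor, at least 139-fold. The largest gain was 5830417I10Rik, at chr3:88629840-88629898, with levels of -7.25 and 2.03 without tumor, at least 155-fold higher, and -7.26 and 1.77 with tumor, at least 143-fold. Its second probe gave 4.77 and 7.77.

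Abra, which encodes an actin-binding protein of muscle, had levels of 1.55 and -3.35 without tumor, 29.7-fold lower, and 1.95 and -4.77 with tumor. The transcript TC1686295 was 27.7-fold lower, and 4930520O04Rik differed by -4.25. Rrp7a, of ribosomal RNA processing, was 14.6-fold lower by a bright probe (1.07 and -2.80), while its other probe differed by 0.35. Fanca, of the Fanconi DNA repair complex, differed by -3.46 by its probe in columns 1 to 51, and its other probe was not well above background. Osbpl3, an oxysterol-binding protein gene, differed by -2.93 and -3.09 by its 2 probes without tumor and by -2.66 and -3.19 with tumor. Deptor, an inhibitor of mTOR signalling, had levels of 4.48 and 1.79 by its brighter probe and 4.10 and 1.86 with tumor. Its second probe differed by -0.57 and -0.07. Snhg18, a small nucleolar RNA host gene, went from 1.94 to -0.97 without tumor and from 1.93 to -1.35 with tumor. Raet1e, a ligand of the NKG2D receptor of NK cells, was at least 13.9-fold lower, and Cthrc1, a secreted matrix protein gene, at least 18.1-fold lower.

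In the other direction, Agpat4, an acyltransferase of phosphatidic acid synthesis, had levels of -0.40 and 3.24 without tumor and -0.99 and 2.28 with tumor. Its 2 probes differed by 3.65 and 3.67. Pttg1, the securin that holds sister chromatids together, had levels of 1.30 and 4.45 without tumor and 1.42 and 4.61 with tumor. Cyp26b1, which degrades retinoic acid, went from 0.53 to 3.35 and from -0.30 to 3.27. Psca, a surface antigen anchored by a lipid, did not clear background in WT cells without tumor and reached -0.43 in the Tlr3-deficient cells, at least 28.1-fold higher; with tumor it was 26.3-fold higher. Pcsk6, a proprotein convertase gene, was higher by both probes, by 2.63 and 2.77. Abhd1 was higher by both probes too, by 2.38 and 2.31, and by 2.62 and 2.79 with tumor. Pglyrp1, a peptidoglycan recognition protein gene, went from -1.32 to 1.21 and from 0.53 to 2.80. Enpp1, which makes pyrophosphate outside the cell, differed by 2.60 and 3.04. Sybu, which links vesicles to the kinesin motor, differed by 2.24 and 1.08 by its 1 probe above background. Slc6a20a, a proline transporter gene, was at least 7.58-fold higher without tumor and 19.6-fold higher with tumor.

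**Figure D4:**
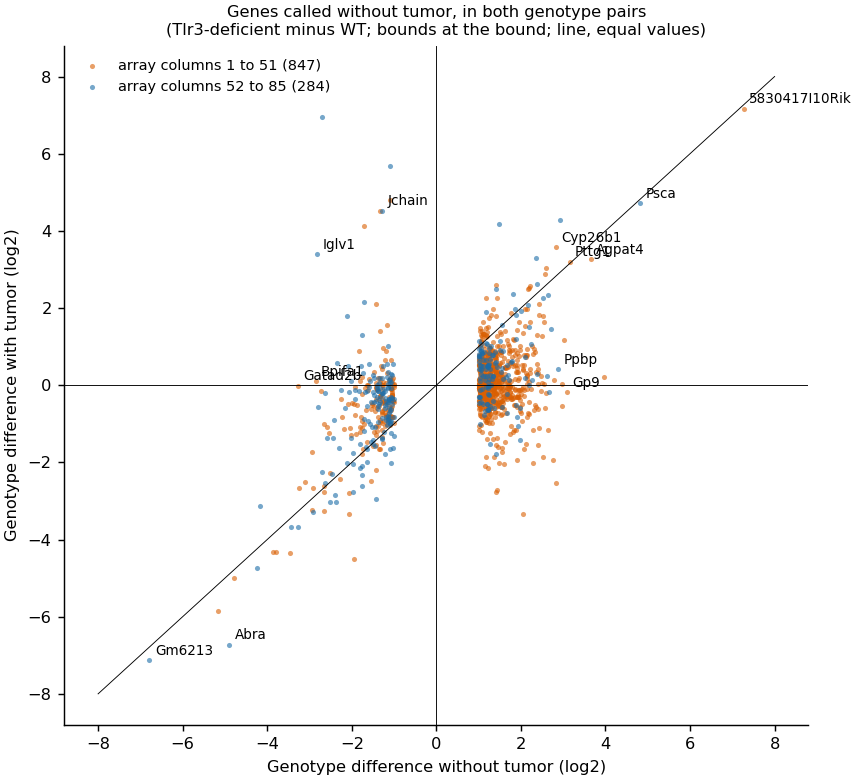
Log2 difference between Tlr3-deficient and WT cells without tumor (x axis) and with tumor (y axis) for genes called without tumor and tested in both pairs, coloured by side of the array, with bounds at the bound; the diagonal marks equal values. Genes with large differences such as Gm6213, Abra, Psca, Agpat4 and 5830417I10Rik lie near the diagonal, 189 genes lie beyond 2-fold the same way on both axes, and Iglv1 and Jchain lie opposite.

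Other large differences were seen without tumor alone. Gatad2b, of a chromatin repressor complex, was 9.71-fold lower by its brightest probe (1.07 and -2.21) and 1.01-fold different with tumor, while its other probes differed by 1.5 and -0.08. Crb3, an apical polarity gene, had levels of -1.37 and 1.19 without tumor and 1.18 and 0.60 with tumor, so the WT array without tumor was the low one. The probe listed under Ptprz1 in columns 52 to 85 had a level of 6.14 on that array and 8.41, 8.30 and 8.42 on the other 3. That probe is placed on chromosome 14 (mm9) and the other Ptprz1 probes on chromosome 6, so it may not read Ptprz1. Another Ptprz1 probe differed by -0.25. Gm9558 was low in the Tlr3-deficient cells without tumor alone, with -1.84 against 0.79, 0.21 and 0.01. Frmd5, a gene of the band 4.1 superfamily, differed by -2.81 by its brightest probe and by -0.07 by the other probe above background on both arrays. Such genes rest on 1 array and often on 1 probe.

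Genes around Tlr3 on chromosome 8 were called more often than genes elsewhere. Within 10 Mb on either side 64 genes were tested, Tlr3 included, of which 7 were higher and 9 lower, 25% in all, against 8.01% elsewhere. In columns 52 to 85 the shares were 34.6% of 26 genes and 4.81% elsewhere. Of the 16 called genes 10 were called the same way with tumor (62.5%), against 13.2% of those called elsewhere, and 15 had the same sign. Of 227 windows of 10 Mb with at least 20 genes, that from 40 to 50 Mb of chromosome 8 held the highest share of genes called the same way in both pairs, 12.5% of 48, and that from 30 to 40 Mb the second, 10.3% of 39. Tlr3 lies in the first.

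The called neighbors pointed both ways. Gm6213 lies at -6.03 Mb from Tlr3, where a minus sign marks a lower coordinate. AK034021, a transcript at -6.29 Mb, was at least 5.22-fold lower, and Mtmr7, a phosphoinositide phosphatase gene at -4.84 Mb, at least 3.40-fold lower. Eri1, an RNA exonuclease gene, went from 1.58 to 0.57 without tumor and from 1.21 to -0.12 with tumor, and its other probes gave -0.66 and -0.31 without tumor. Asah1, the acid ceramidase gene, went from 2.12 to 1.01 and differed by -0.82 with tumor, and Klkb1, the plasma kallikrein gene at -0.12 Mb, differed by -1.01 and -0.81. Higher were Pdlim3, a gene of the muscle cytoskeleton at 0.52 Mb, with levels of -1.23 and 1.47 without tumor and -1.0 and 0.45 with tumor, and differences of 2.70 and 2.45 by its 2 probes. Trmt9b, of tRNA modification, differed by 2.17 without and 2.5 with tumor (2.58 and 2.84 by its second probe), Pdgfrl by 1.79 and 0.91, and the centromere gene Cenpu by 1.10 and 1.33. Sorbs2, an adaptor of the actin cytoskeleton next to Tlr3, was at least 2.08-fold higher without tumor by its brightest probe, but the mean of its probes turned the direction (-0.89).

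**Figure D5:**
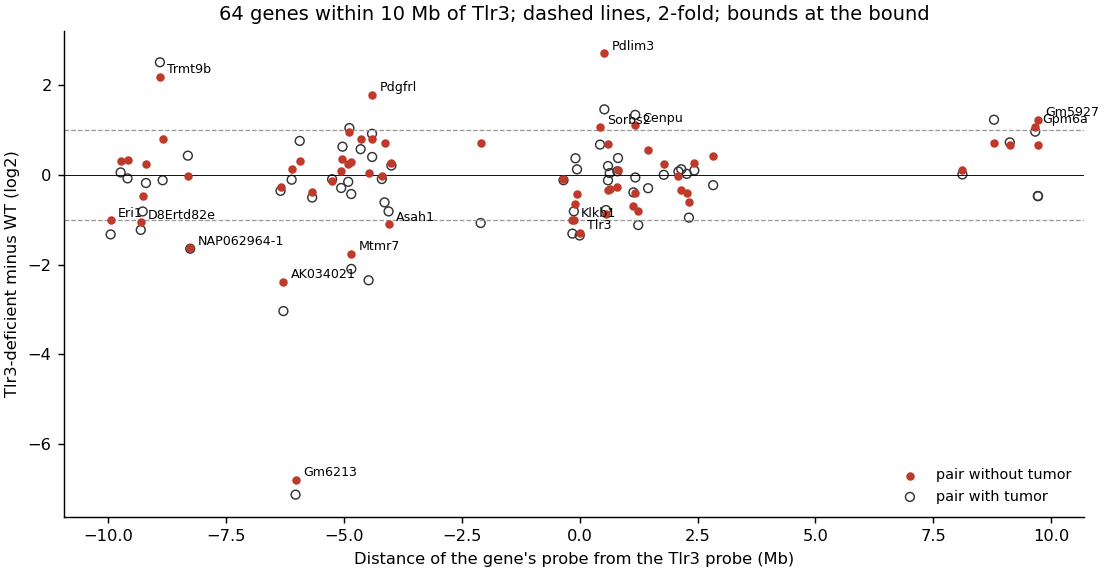
Log2 difference between Tlr3-deficient and WT cells for 64 genes within 10 Mb of Tlr3, against the distance of the gene's probe from the Tlr3 probe in Mb; filled points are the pair without tumor, open circles the pair with tumor, bounds are drawn at the bound, and dashed lines mark 2-fold. The 16 genes named are those called without tumor, 10 of which were called the same way with tumor.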

How the data were processed

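Total RNA from 4 sorted samples was hybridised to 1-colour (Cy3) Agilent arrays of design 014868 and scanner images were read with Agilent Feature Extraction, version 10.7.3.1 by the file headers. The authors deposited linear intensities from which background and spatial trend had been removed array by array, per the file headers. The authors' deposited value table holds log2 values (r with log2 processed signal 0.9995 to 0.9998 by array, column medians 6.31); its making is not described, and it served as an alternative only. Its values depart from the scanner files for Tlr3 and Cxcl12.

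Here log2 processed signal was centred on each array's 75th percentile over gene spots without an outlier flag. Replicate spots were averaged, and the brightest probe of a gene (mean over 4 arrays) stood for it. Of 41174 probes, 27668 were named by accession through a RefSeq table of GRCm38.p6, used for names alone, and 1489 on chromosomes X or Y were left out. A gene was tested when 1 or both arrays had its probe well above background; 9556 gene names did not reach this. For a bound, the brighter value was set over the dim probe or over that array's lowest signal well above background, whichever was higher. The scanner's error model gave a median SD of 0.205 for a log2 difference. The number of arrays limits the precision. Positions are mm9 probe positions except those of promoters.

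Named genes are the 15 largest measured differences and 6 largest bounds in each direction, the 8 largest in columns 52 to 85, called list members (up to 4 a list, or the first 4 members), called genes within 10 Mb of Tlr3 and the 8 largest shared with the pair with tumor; further list members are given as examples chosen after their values were seen. The members and the 48 gene lists were chosen with earlier results of these data known. Alternatives were normexp with an offset of 50 (limma 3.58.1), quantile and median centring, other filters, the mean of probes, each side of the array alone, array column medians subtracted, the value table and X and Y probes kept. The code was tested on simulated data (Python 3.11.15, R 4.3.3). Some members of the lists are counted but not reported here by name.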

Additional observations from a re-analysis of the deposited data

Results flagged for a closer look

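Named genes whose genotype difference had opposite signs in the 2 pairs, at least 2-fold in each, are given here. Values are the log2 difference without and with tumor. Over all genes tested in both pairs, 43 were called higher without tumor and lower with it, and 14 the reverse. The genes below are only the part of these that met the rule for naming genes. The difference between the pairs was not tested, since each group is 1 array. Antibody genes were lower without tumor and higher with it: Iglv1, an immunoglobulin light chain segment, differed by -2.83 and 3.39, and Jchain, which joins secreted antibody units, by -1.28 and 4.52. All 8 Iglv1 probes had these signs, most of them near background without tumor. Red cell genes ran the other way, with Slc4a1 at 1.48 and -2.02 and Hba-a1 at 1.0 and -1.06. Rsad2, an interferon-induced gene, differed by 1.36 and -1.87, and the microfibril gene Fbn2 by 1.42 and -1.79. The clock output gene Dbp differed by -1.33 and 1.40, and Cyp2a4, a steroid hydroxylase gene, by -1.16 and 1.56. Rec114, of meiotic recombination, differed by 2.51 and -1.87, the mitotic checkpoint gene Kntc1 by 2.12 and -1.52, and the imprinted RNA Rian by 1.46 and -1.60, a bound in each pair.

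Transcripts of the Y chromosome, which enter no count, were found on the Tlr3-deficient array without tumor, although its sample is labelled female. As bounds of the log2 difference from the WT array, Ddx3y was higher by at least 6.32, Eif2s3y by 6.36, Kdm5d by 3.97 and Uty by 1.29.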

How the results depend on the processing

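No paired analysis was possible because each group is 1 array. The medians of the lists for platelet, type I, elastic fiber, fibroblast, collagen, secretory, cholesterol, NRF2 and type I interferon genes kept their sign in all 11 alternatives, with -0.76 to -0.55 for cholesterol, 0.36 to 0.84 for type I and 0.07 to 0.35 for interferon genes.

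With normexp, 476 genes were called higher and 235 lower, 100 shared with the pair with tumor and 13 opposite, and the platelet and neuroendocrine medians were 0.995 and -0.11. Without a filter on dim probes the counts were 2005, 992, 463 and 290. With genes above background on both arrays they were 573 and 249, with 23 opposite. The value table gave 598 lower and 88 opposite, and -1.69 for Cxcl12. Columns 52 to 85 alone gave 170 higher, 224 lower, 89 shared and 17 opposite. The platelet median there was 1.38 over 2 genes. It is the midpoint of Ppbp (2.87) and the other gene, which was not higher in the Tlr3-deficient cells. The elastic fiber median was 0.41, and Fanca and Aqp4 gave 0.32 and -0.33. Columns 1 to 51 alone gave 232 lower, a fibroblast median of 0.31 and a T and NK cell median of 0.70, and 1.52 for Frmd5, -0.25 for Ptprz1, -0.41 for Sybu, 0.66 for Spag6, 0.22 for Klrb1c and 0.21 for Dlk1. The mean of all probes gave -0.20 for Col15a1 and -0.89 for Sorbs2. The values for Fanca, Frmd5, Sybu, Spag6, Klrb1c and Dlk1 come from probes not well above background on either array without tumor. Otherwise the cause of these changes was not tested. Of 130 named genes called, 87 were still 2-fold different with normexp and 100 with the mean of probes. Median centring moved the median over all genes to -0.14. Signal near background limits the dim genes.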

Other observations

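Over all 17015 genes tested, 189 were called the same way in both genotype pairs. Among genes more than 10 Mb from Tlr3 the share was 1.06%. Shares by chromosome rest on small counts. They were 22 of 700 genes tested on chromosome 15 (3.14%) and 26 of 954 on chromosome 9 (2.73%). Chromosome 18 had 0 of 430 and chromosome 16 had 2 of 570 (0.351%). On chromosome 8 the share was 16 of 871 (1.84%). Abra, LOC100505027, Deptor, Cthrc1, Rrp7a, Bik and Snhg18 (lower) and Psca (higher) lie on chromosome 15. Windows of 10 Mb with a high share outside chromosome 8 were the start of chromosome 6 (3 of 32 genes, 9.38%) and 40 to 50 Mb of chromosome 9 (8 of 96 genes, 8.33%). No test was made of these shares.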
